A study of Mus musculus with 15 samples.

Results

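Mitochondria keep a ribosome of their own and a set of import channels, and the genes for both are described here in maturing fast-spiking interneurons of the mouse cortex. Genes were taken by symbol alone: Mrpl or Mrps followed by a number, for proteins of the large and small subunits of the mitochondrial ribosome, and Tomm or Timm followed by a number, for translocases of the outer and inner membranes. The array held 99 such genes of 18193 with a probe set of their own, and each was read from 1 probe set, the one with the highest mean over 15 arrays. They comprised 47 genes of the large subunit, 29 of the small subunit, 8 of the outer membrane translocase and its receptors, 6 of the presequence translocase and its motor, 3 of the carrier translocase and 6 small chaperones of the intermembrane space. Of the 99, 97 exceeded a log2 value of 5 on at least 3 of 15 arrays, the limit set between signal and background, and 95 of them exceeded it on all 15 arrays. The other two, Timm8a2 (a copy of Timm8a1) and Tomm20l (a copy of Tomm20), read no higher than 3.88 and 2.08 on any array and were not tested.

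RNA came from GFP-labelled neurons of G42 transgenic mice, in which parvalbumin-class interneurons carry the label. The cells were picked by hand from the dissociated primary somatosensory cortex and measured on Affymetrix 430 2.0 arrays at P7, P10, P15, P25 and P40 (postnatal days), the last of the 5 ages covering animals up to P45. Every age had 3 arrays from 3 animals, and all animals carried the same transgene with no other treatment. An array held 23 to 85 cells of 1 animal, whose RNA went through 2 rounds of amplification. By age, the cells numbered 52 to 85 at P7, 47 to 72 at P10, 23 to 45 at P15, 48 to 55 at P25 and 38 to 60 at P40. Every P15 array thus held fewer cells than every P10 array, and at that step cell number and age cannot be told apart. In RNA pooled from picked cells, fewer cells of a type and less RNA per cell cannot be told apart.

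The mitochondrial genome encodes core subunits of the respiratory chain, and the mitochondrial ribosome translates them. All proteins of that ribosome are encoded in the nucleus, made in the cytosol and imported: receptors of the TOM complex (Tomm20, Tomm22, Tomm70) bind the precursor, Tomm40 forms the outer channel, and the TIM23 complex (Timm23, Timm17, Timm50, with Timm44 and the matrix Hsp70 motor) passes it to the matrix. Small Timm chaperones instead guide hydrophobic carriers across the intermembrane space to the TIM22 complex. Fast-spiking interneurons are known for sustained high firing rates and for their dense content of mitochondria.

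Upstream stretches of 6 of these genes, chosen with earlier results known, serve as examples, with no searched motif present in all 6. Each is the 100 bases before the annotated gene start in RefSeq's table for GRCm38.p6, read along the gene's strand, with matches in capitals to the NRF1 motif CGCANGCGC or to the ETS motif CCGGAAG, on either strand. Mrpl17 holds NRF1 matches at 2 places and Tomm20 at 1, Timm10, Mrpl52 and Tomm22 hold ETS matches (in Tomm22 a match on each strand, overlapping), and Mrps14 holds neither in this window. Farther upstream, at -237, Mrpl17 also has an ETS match. Mrpl17, Tomm20, Timm10 and Mrps14 were higher at P40 than at P7, and Mrpl52 and Tomm22 were lower. The calls of Tomm20, Timm10 and Tomm22 did not hold in every setting.
Mrpl17: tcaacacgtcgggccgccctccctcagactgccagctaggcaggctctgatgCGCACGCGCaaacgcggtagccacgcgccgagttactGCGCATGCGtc
Tomm20: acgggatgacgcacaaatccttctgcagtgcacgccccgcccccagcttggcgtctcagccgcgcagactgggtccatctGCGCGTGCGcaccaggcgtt
Timm10: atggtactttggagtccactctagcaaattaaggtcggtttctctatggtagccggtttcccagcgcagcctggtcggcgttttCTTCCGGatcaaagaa
Mrpl52: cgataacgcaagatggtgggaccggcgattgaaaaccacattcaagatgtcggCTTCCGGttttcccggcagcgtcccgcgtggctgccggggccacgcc
Tomm22: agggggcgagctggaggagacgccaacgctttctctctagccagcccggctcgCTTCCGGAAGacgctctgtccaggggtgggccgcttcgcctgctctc
Mrps14: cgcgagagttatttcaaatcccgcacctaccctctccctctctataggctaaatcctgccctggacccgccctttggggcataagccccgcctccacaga
The stretches lie at chr7:105811088-105811187 (minus strand), chr8:126945922-126946021 (minus), chr2:84826921-84827020 (plus), chr14:54426809-54426908 (plus), chr15:79670768-79670867 (plus) and chr1:160195115-160195214 (plus). NRF1 and the ETS factor GABPA are known as activators of nuclear genes for mitochondrial proteins.

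Of the 99 genes, 87 had a promoter entry, spanning 250 bases before to 50 bases after the gene start. The ETS motif was found in 34 of these 87 (39.1%), against 15% of the 14452 genes on the array with an entry and 9.93% of all 27025 genes in the table. NRF1 matches were found in 22 of 87 (25.3%), against 11.6% of array genes and 7.12% of all genes. The YY1 motif AAGATGGCG was present in 9 genes (10.3%, against 2.53% of array genes), and the ESRRA motif TCAAGGTCA in 1 (1.15%, against 0.401%). Split by the comparison of P40 with P7, an NRF1 match stood in 15 of 38 promoters of genes that rose, 0 of 7 of genes that fell and 7 of 40 of genes that did not pass the test. ETS matches stood in 13 of 38, 4 of 7 and 16 of 40. The NRF1 and YY1 motifs were shortened by 1 base after a longer form had been counted. With a G required before the NRF1 motif, 14 of 87 matched, against 1244 of 14452 array genes (8.61%), in 10 of 38, 0 of 7 and 4 of 40 promoters in the same order. With a G required after the YY1 motif, 6 of 87 matched (6.9%, against 1.63% of array genes). The splits by direction have no counts over all genes that rose or fell beside them and were not tested, so they do not set these genes apart. A match of letters is a description and shows no binding.

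Pvalb, the calcium-binding protein of this class, read 14.42, 14.05 and 14.37 at P40, against 3.23, 3.19 and 4.45 at P7, where it was below the limit on all 3 arrays. Gad1 and Slc32a1, needed to make and load GABA, read 12.94 or more on every array, and rose 2.15-fold and 1.65-fold between P7 and P40. Of 12 markers of this class, 9 exceeded 5 on all 3 arrays at P7 and 11 did at each later age. Between P40 and P7, 9 of 11 tested rose and 2 fell (81.8 and 18.2%, against 27.5 and 17.6% of all genes). Those that fell were Lhx6 (1.78-fold, limma adjusted p = 0.0027) and Sox6 (1.89-fold, limma adjusted p = 0.013). Of 11 excitatory neuron markers on the array, 1 exceeded 5 on all 3 arrays at P7 and 2 did at each later age, and the 11 summed to 45.6 to 49.3 at P7, 46.0 to 51.0 at P10, 44.3 to 46.0 at P15, 48.4 to 49.0 at P25 and 46.6 to 47.4 at P40. Slc17a7, their glutamate transporter, stayed between 2.41 and 2.62, but Cux2, a transcription factor of upper layers, read 9.96 to 11.36, and Camk2a, a kinase of excitatory synapses, averaged 7.47 ± 0.16 at P40 and 5.38 ± 0.36 at P7 (SD, n = 3 arrays each, 4.24-fold, limma adjusted p = 1.4e-04). Of 12 markers of other interneuron classes, 7 exceeded 5 on all 3 arrays at each age up to P25 and 6 did at P40, with sums of 85.3 to 95.1 at P7, 88.8 to 96.4 at P10, 95.3 to 106.2 at P15, 94.8 to 106.3 at P25 and 78.4 to 99.9 at P40. Sst, the peptide somatostatin, read 1.72 on P40 replicate 1 and 9.20 to 13.04 on every other array. Cck, a peptide of another class, averaged 11.96 ± 0.42 at P40 and 8.41 ± 0.62 at P7 (11.7-fold, limma adjusted p = 8.2e-07), and Reln 9.35 ± 1.44 at P40 and 12.04 ± 0.41 at P7 (6.49-fold lower, adjusted p = 7.8e-04). Summed over 8 oligodendrocyte markers, levels were 35.2 to 36.8 at P7, 40.8 to 45.3 at P25 and 31.1 to 34.0 at P40. Astrocyte markers (9 genes) summed to 32.3 to 45.3 at P10 and 34.1 to 52.9 at P25, against no more than 33.7 at the other ages. Microglial, oligodendrocyte precursor and endothelial markers had no gene over 5 on all 3 arrays of any age. The log2 difference between the 3′ and 5′ probe sets of beta-actin, a gauge of how far amplified RNA extends, was 4.64 to 6.41 at P7, 5.34 to 6.09 at P10, 3.54 to 5.97 at P15, 4.70 to 6.04 at P25 and 3.40 to 4.50 at P40. For Gapdh it was 4.07 to 5.06 at P7, 3.65 to 5.52 at P10 and 2.27 to 3.68 at P15. At P25 the Gapdh difference was 3.10 to 4.18 and at P40 2.39 to 3.93, without overlap between P40 and P7. No fit used the Gapdh difference as a covariate. Spiked hybridization controls had a median of 2.53 on P15 replicates 2 and 3 and at least 8.43 elsewhere, so counts and medians that rest on P15 are also given without these 2 arrays. How far these readings bear on the differences below was not tested, except where a value says so.

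The comparison of P40 with P7 covers the widest span of ages, before and after these cells acquire parvalbumin. Most of the mitochondrial translation and import genes that passed the test were higher in the older cells: 43 of 97 rose and 7 fell (44.3% and 7.22%, limma, adjusted p under 0.05 over all 9663 genes tested). Over all genes tested, 27.5% rose and 17.6% fell, 45.2% in either direction. By role, 48.9% rose and 8.51% fell in the large ribosomal subunit, and 44.8 and 3.45% in the small one. The import groups were uneven, at 28.6 and 14.3% for the outer membrane and 16.7% each way for the presequence translocase. None of 3 carrier translocase genes and 4 of 5 small chaperones rose. The median log2 difference was 0.55 for the 97 genes and 0.18 for all genes. Genes that rose did so by 1.37-fold to 4.1-fold with a median of 2.15-fold, 25 of the 43 by at least 2-fold. The 7 that fell were Mrpl52, Mrpl23, Mrpl33, Mrpl3, Mrps24, Tomm22 and Timm17b, by 1.5-fold to 2.46-fold.

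Array by array, the 3 P40 arrays all lay above the 3 P7 arrays for 49 of 97 genes (50.5%, against 33.1% of all genes) and all below for 8 (8.25%, against 22.6%). Among the 43 that rose, 42 showed no overlap, as did all 7 that fell. The test that picked these genes used the same arrays, so this adds no separate support. Levels were measured relative to the whole array, and the size of the shift depended on that scaling. With every array set to the same median, the median over all genes became -0.04 and that of the mitochondrial genes 0.33, 28 rose (28.9%, against 22.3% of all genes) and 8 fell (8.25%, against 22.8%). With this 3′ to 5′ difference of beta-actin as a covariate, 14 rose and 4 fell (14.4% and 4.12%), against 14.2% and 13.3% of all genes. By subunit 8 then rose and 3 fell in the large one, and 4 rose and none fell in the small one, and Mrpl3, Mrps24, Tomm20 and Tomm22 were among the calls lost. That difference did not overlap between P40 and P7, so its part and that of age cannot be told apart.

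**Figure D1:**
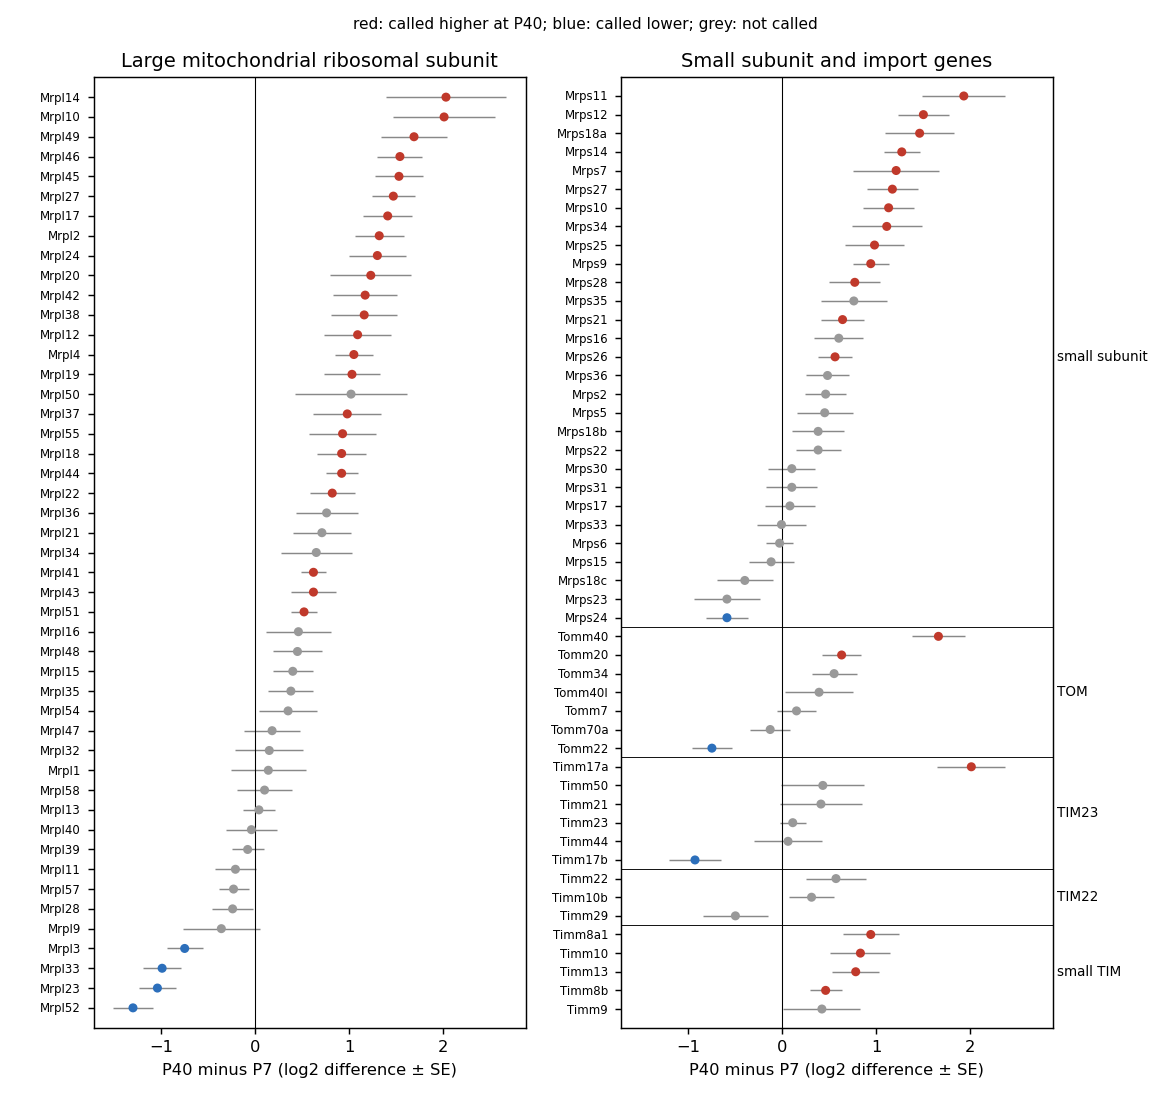
Log2 difference, P40 minus P7, of the 97 tested genes (points) with the moderated standard error (bars), ordered by size within each role; red marks genes called higher at P40, blue those called lower and grey those not called. Of the 97, 43 are red and 7 blue, and the blue points include Mrpl52 at the bottom of the large subunit and Timm17b at the bottom of the TIM23 group.

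In the large subunit, 23 of 47 genes rose and 4 fell, with a median difference of 0.65. Mrpl46, a protein found in the mitochondrial but not the bacterial ribosome, had values of 10.64, 10.79 and 10.53 at P40, against 9.51, 8.58 and 9.26 at P7. Every P40 array was above every P7 array, and the rise was 2.9-fold (log2 1.54, SE 0.24, adjusted p = 1.3e-04). Mrpl27, whose bacterial counterpart reaches into the peptidyl transferase centre, read 11.30, 11.64 and 11.31 at P40, against 10.34, 9.73 and 9.76 at P7. It rose 2.77-fold (adjusted p = 1.5e-04). Mrpl45, which in mammals lies near the exit tunnel on the side facing the inner membrane, read 8.87, 8.51 and 8.88 at P40, against 6.94, 7.32 and 7.42 at P7. Its groups were more than 1 log2 unit apart, a rise of 2.89-fold (adjusted p = 2.8e-04). Mrpl17, which carries the NRF1 matches shown above, had 9.88, 9.92 and 9.54 at P40 and 8.29, 8.83 and 8.01 at P7 (2.65-fold, adjusted p = 5.5e-04).

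The largest differences in this subunit, named here after their values were seen, came with wide errors. Mrpl14, one of the conserved core proteins, read 7.20, 8.21 and 7.47 at P40, against 6.21, 5.47 and 5.10 at P7, a 4.1-fold rise (log2 2.03, SE 0.64, adjusted p = 0.018). Mrpl10, a protein of the stalk base, had 8.55, 8.87 and 8.39 at P40 and 7.44, 7.49 and 4.83 at P7, where 1 array lay far below the other two (4.04-fold, adjusted p = 0.007). Other rises were smaller and more even. Mrpl41 averaged 13.09 ± 0.11 at P40 and 12.48 ± 0.07 at P7 (SD, n = 3 each), 1.53-fold (adjusted p = 0.0014), and Mrpl51 rose 1.43-fold (adjusted p = 0.0065). Mrpl2, near the catalytic centre, had 11.63, 11.72 and 11.67 at P40, against 10.38, 10.37 and 10.32 at P7, so that each group spanned under 0.1 (2.49-fold, adjusted p = 9.2e-04). Mrpl12, which also binds the mitochondrial RNA polymerase in human cells, read 11.40, 11.39 and 11.01 at P40 and 10.45, 10.51 and 9.57 at P7 (2.13-fold, adjusted p = 0.024). Mrpl44, Mrpl4, Mrpl24, Mrpl49, Mrpl18, Mrpl19, Mrpl42, Mrpl38, Mrpl22, Mrpl20, Mrpl37, Mrpl55 and Mrpl43 also rose, by 1.54-fold (Mrpl43) to 3.23-fold (Mrpl49).

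In the other direction 4 large-subunit genes fell. Mrpl52, a mitochondria-specific subunit protein whose upstream stretch with an ETS match is shown above, had 11.33, 11.60 and 11.44 at P40, against 12.30, 13.09 and 12.87 at P7. The groups lay apart by more than 0.5, and the fall was 2.46-fold (log2 -1.30, SE 0.21, adjusted p = 1.9e-04). Its other 2 probe sets over the limit differed by -1.54 and -1.70, in the same direction. Mrpl23, a protein at the exit of the tunnel, fell 2.05-fold (9.95, 10.02 and 10.23 at P40, against 10.95, 11.17 and 11.19 at P7, adjusted p = 7.6e-04). Mrpl33, a small conserved protein, read 10.42, 10.37 and 10.47 at P40 and 10.94, 11.47 and 11.81 at P7 (1.98-fold lower, adjusted p = 0.0012). Mrpl3, a core protein near the catalytic centre, fell 1.69-fold (adjusted p = 0.0056) on the probe set used, yet its other 3 probe sets over the limit differed by -0.16, 0.46 and 1.91, and their mean gives a difference of 0.36 that is not called.

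Among the 20 large-subunit genes that did not pass the test, differences ran from -0.36 (Mrpl9) to 1.02 (Mrpl50, adjusted p = 0.18, with a SD of 1.39 at P7). A second probe set of Mrpl9 over the limit differed by 0.87, the opposite sign. Mrpl58, the peptidyl-tRNA hydrolase that became a ribosomal protein, averaged 10.46 at P40 and 10.36 at P7. Mrpl13 and Mrpl39 differed by 0.04 and -0.08. Other probe sets over the limit differed by 0.75 for Mrpl58, 0.70 and -0.09 for Mrpl13 and 0.47 for Mrpl39.

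In the small subunit, 13 of 29 genes rose and 1 fell, with a median of 0.56. Mrps14, a core protein of the head, had the smallest adjusted p of all 97 genes. Its values were 11.09, 11.04 and 11.05 at P40, against 9.92, 9.94 and 9.53 at P7, a 2.41-fold rise (log2 1.27, SE 0.19, adjusted p = 1.1e-04). The P40 arrays lay within 0.05 of each other and above all P7 arrays, and its other 2 probe sets over the limit differed by 1.21 and 2.45. Mrps12, the decoding-centre protein whose bacterial counterpart binds streptomycin, read 11.11, 10.83 and 10.92 at P40 and 9.52, 9.11 and 9.73 at P7 (2.83-fold, adjusted p = 4.1e-04). Mrps11 (named after its values were seen) rose 3.81-fold, to 9.58 ± 0.12 at P40, against 7.65 ± 0.79 at P7 (SD, n = 3, adjusted p = 0.0025). Mrps9, Mrps27, Mrps10, Mrps26, Mrps25, Mrps34, Mrps28, Mrps21 and Mrps7 rose as well, by 1.47-fold (Mrps26) to 2.32-fold (Mrps7). Mrps18a rose 2.76-fold (adjusted p = 0.0047), and Mrps30 differed by 0.10. Both carry small-subunit names, but in the mammalian ribosome they sit in the large subunit.

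Mrps24 was the only small-subunit gene called lower, with 12.10, 12.03 and 11.70 at P40, against 12.57, 12.56 and 12.47 at P7 (1.5-fold lower, adjusted p = 0.044). This call did not hold when any single array of P7 or P40 was left out, and its second probe set differed by -0.07. The 15 small-subunit genes that did not pass ran from -0.59 (Mrps23, adjusted p = 0.18) to 0.76 (Mrps35, adjusted p = 0.089). The other 2 probe sets of Mrps23 over the limit differed by 1.79 and 2.24, the opposite sign. Mrps36, since placed in the oxoglutarate dehydrogenase complex rather than the ribosome, differed by 0.48 (adjusted p = 0.1).

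**Figure D2:**
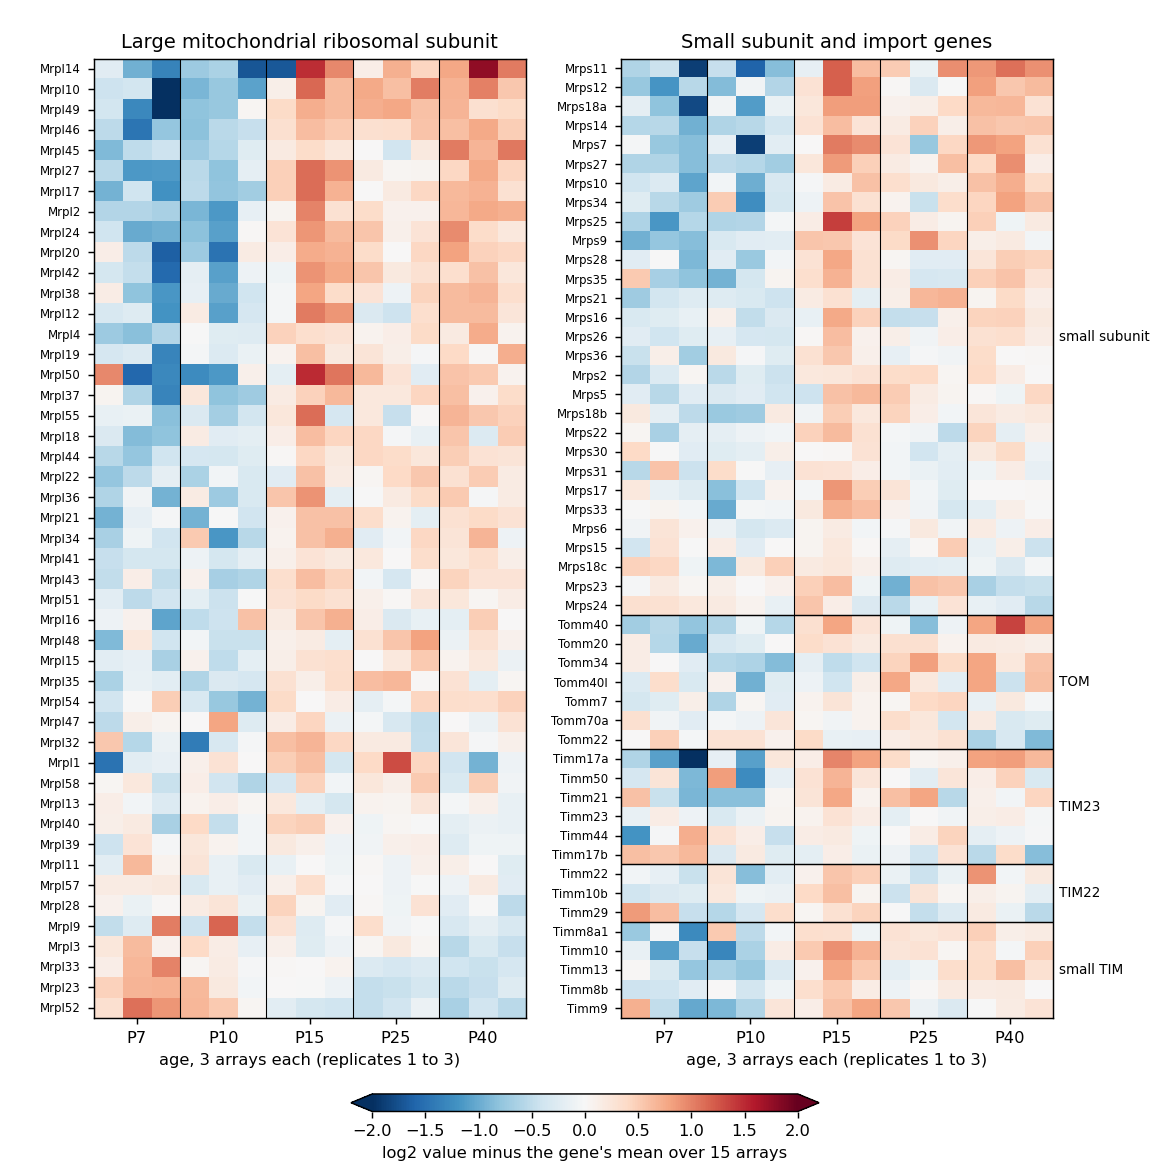
Log2 value minus the gene's mean over 15 arrays (colour, blue low and red high, clipped at -2 and 2) for the 97 tested genes (rows, by role, ordered by the P40 minus P7 difference) on the 15 arrays (columns, P7 to P40, replicates 1 to 3). Blue at P7 and P10 turns to red from P15 in the upper rows of each ribosomal subunit, the darkest red column is P15 replicate 2, and the bottom rows of the large subunit run the other way.

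Of the outer membrane genes, 2 of 7 tested rose, Tomm40 and Tomm20, and Tomm22 fell (28.6 and 14.3%, against 27.5 and 17.6% of all genes). Tomm40, the channel of the complex, had 9.42, 9.98 and 9.44 at P40, against 7.94, 8.08 and 7.84 at P7. All P40 arrays lay more than 1 log2 unit above all P7 arrays, a rise of 3.16-fold (log2 1.66, SE 0.28, adjusted p = 2.9e-04). Tomm20, the receptor for presequences, read 13.74, 13.73 and 13.68 at P40 and 13.71, 12.99 and 12.56 at P7. P7 replicate 1 overlapped the P40 arrays, the rise was 1.55-fold (adjusted p = 0.023), and among other settings it was not called without P7 replicate 3 (log2 0.36), without P7 replicate 2 or with equal array medians. The other 5 probe sets of Tomm20 differed by -0.09 to 1.73. Tomm22, the central receptor that joins Tomm20 to the channel, fell 1.69-fold, with 10.78, 11.09 and 10.53 at P40, against 11.41, 11.88 and 11.37 at P7 (adjusted p = 0.0079). Its probe set, like that of Mrpl44, which rose, is of the kind whose probes can match other transcripts. A second probe set of Tomm22 differed by 0.96, the opposite direction.

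The remaining outer membrane genes did not pass the test. Tomm70a, the receptor for carrier proteins, had 12.44, 11.95 and 12.01 at P40 and 12.57, 12.18 and 12.03 at P7 (log2 -0.13, adjusted p = 0.65), and its other 3 probe sets over the limit differed by -1.46, 1.06 and -1.02. Tomm34, a cytosolic co-chaperone of import, differed by 0.55 (adjusted p = 0.072), Tomm40l, a paralogue of the channel, by 0.39, and Tomm7, a small subunit of the complex, by 0.15. Other probe sets over the limit differed by 0.35 for Tomm40l and by 0.21 and 0.80 for Tomm7.

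In the presequence translocase, 1 of 6 genes rose and 1 fell (16.7% each, against 27.5 and 17.6% of all genes). These were the paralogues Timm17a and Timm17b, alternative subunits of the TIM23 channel. Timm17a had 11.58, 11.61 and 11.42 at P40, against 10.17, 9.69 and 8.73 at P7, and rose 4.02-fold (log2 2.01, SE 0.36, adjusted p = 4.5e-04). Timm17b had 10.30, 11.20 and 9.99 at P40, against 11.43, 11.37 and 11.49 at P7, and fell 1.9-fold (log2 -0.93, SE 0.28, adjusted p = 0.014). Neither pair of groups overlapped. Timm17a was called under every other setting tried, at 1.26 in place of 2.01 on the log2 scale with the beta-actin covariate (adjusted p = 0.024), whereas the call of Timm17b did not hold without P40 replicate 1 or 3, nor when its 2 probe sets were averaged (log2 -0.30). The probe set of Timm17b can also match other transcripts, and no test of the difference between the paralogues was made.

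The remaining genes of the TIM23 complex did not pass the test. Timm23, the channel itself, read 12.71, 12.74 and 12.54 at P40 and 12.43, 12.73 and 12.49 at P7 (log2 0.11, SE 0.14, adjusted p = 0.55), and its difference was -0.01 after quantile normalization and -0.11 with equal array medians. Timm44, which tethers the Hsp70 motor, had 10.18, 10.26 and 10.34 at P40 and a wide spread of 9.17, 10.33 and 11.09 at P7 (log2 0.06, SE 0.36). Its sign turned to -0.14 after quantile normalization, -0.16 with equal medians and -0.45 without P7 replicate 1. Other probe sets of Timm44 over the limit differed by -0.14 and 0.46. Timm50, the receptor on the inner membrane, and Timm21, which links the complex to the respiratory chain, differed by 0.43 and 0.41 and were not called. Of the carrier translocase genes none passed, by the adjusted or the unadjusted limma p at 0.05. Timm22, its channel, differed by 0.57 (9.66, 8.71 and 8.96 at P40, against 8.71, 8.59 and 8.31 at P7, adjusted p = 0.15), Timm10b by 0.31 and Timm29 by -0.50. Other probe sets over the limit differed by -0.58 for Timm22 and by 0.86, 0.33 and 1.69 for Timm10b.

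Of the small chaperones, 4 of 5 tested rose, with a median of 0.78. Timm8a1, the partner of Timm13 and the mouse counterpart of the human deafness-dystonia gene, had 11.85, 11.49 and 11.53 at P40, against 10.63, 11.34 and 10.09 at P7 (1.92-fold, adjusted p = 0.018). Timm13 read 11.39, 11.63 and 11.32 at P40 and 11.05, 10.71 and 10.25 at P7 (1.71-fold, adjusted p = 0.019). Timm10 had 11.62, 11.22 and 11.74 at P40 and 11.12, 10.16 and 10.80 at P7, 1.78-fold higher with an adjusted p of 0.044, and was not called in most other settings. Its partner in the hexamer, Timm9, read 9.37, 9.54 and 9.65 at P40 and 10.08, 8.88 and 8.35 at P7, and was not called (log2 0.42, adjusted p = 0.42). A second probe set of Timm9 over the limit differed by 1.27. Timm8b rose by 1.37-fold (adjusted p = 0.036). All 4 calls were lost with the beta-actin covariate, and 1 remained with equal array medians.

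**Figure D3:**
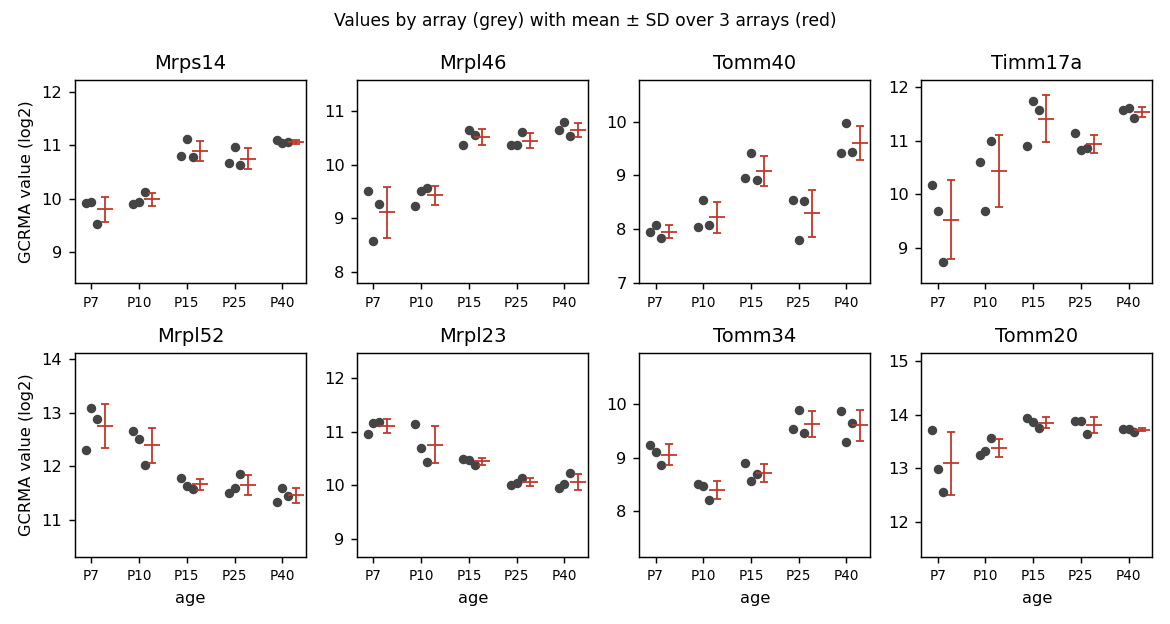
Log2 value of 8 genes on each array (grey points, replicates 1 to 3 from left to right) with the mean and SD of 3 arrays (red), by age, each panel on its own axis of equal span. Mrps14, Mrpl46, Tomm40 and Timm17a are higher at P40 than at P7, Mrpl52 and Mrpl23 are lower, Tomm34 is higher from P25 on, and P7 replicate 1 of Tomm20 lies among the P40 values.

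Across the 5 ages, levels were low at P7 and P10 and higher from P15 on. The lowest mean fell at P7 in 46 and at P10 in 30 of the 97 genes (47.4 and 30.9%, against 33.5 and 21.5% of all genes tested), and in 46 and 28 with P15 taken from replicate 1 alone. The highest mean fell at P7 in 12 genes, at P10 in 4, at P15 in 43, at P25 in 17 and at P40 in 21, against 27.1, 8.73, 17.1, 22 and 25.1% of all genes tested. With P15 taken from replicate 1 alone, it fell at P15 in 25 genes and at P40 in 42, against 12.5 and 28.8% of all genes. Of the 43 genes higher at P40 than at P7, all 43 had a higher mean at P15 than at P10, 35 a lower mean at P25 than at P15 and 35 a higher mean at P40 than at P25, against 93.8, 32.8 and 66.3% of all 2662 genes called higher at P40. With P15 taken from replicate 1 alone, 42 had a higher mean at P15 than at P10 (86.9% of the 2662) and 20 a lower mean at P25 than at P15 (17.1%). Centred on each gene's mean, the median over the 97 genes was -0.26, -0.25 and -0.44 on the P7 arrays, -0.20, -0.36 and -0.19 at P10, 0.15, 0.55 and 0.27 at P15, 0.12, 0.05 and 0.12 at P25, and 0.26, 0.18 and 0.15 at P40. All 9 arrays from P15 on lay above all 6 arrays before it. The median over all genes tested was also lower before P15 than after it on most arrays, over a smaller span, at -0.00, -0.11 and -0.20 on the P7 arrays, -0.15, -0.15 and -0.05 at P10, -0.04, 0.18 and 0.15 at P15, 0.16, 0.13 and 0.03 at P25, and 0.05, 0.15 and 0.06 at P40, where P15 replicate 1 lay below the first P7 array. P15 replicate 2, with 23 cells, 1 of the 2 arrays without hybridization signal and an actin difference of 3.99, held the highest value of 39 of the 97 genes (40.2%, against 10.5% of all genes). An F test over the 5 ages called 48 of the 97 genes (49.5%), against 47.2% of all genes, and 33 (34%, against 40.6%) without P15 replicates 2 and 3.

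**Figure D4:**
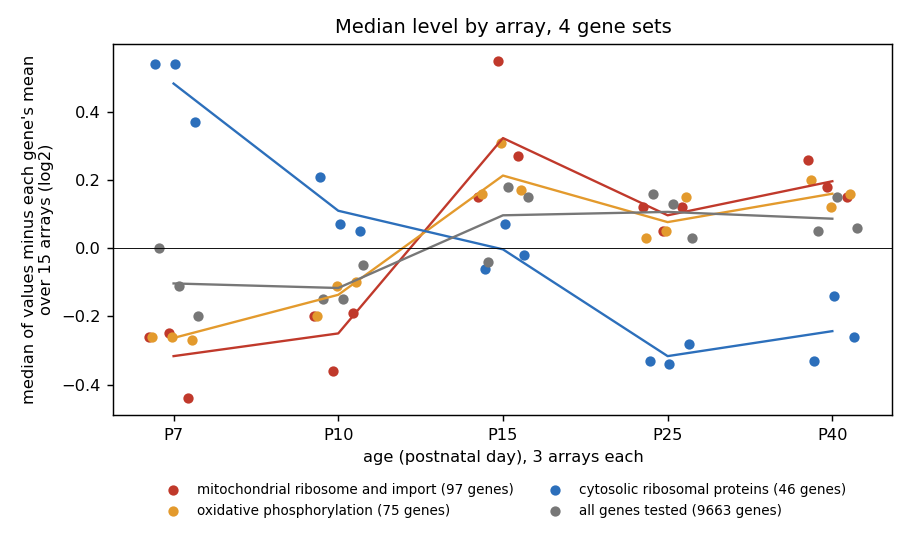
Median over each gene set of the log2 values minus each gene's mean over 15 arrays, 1 point per array, with lines through the mean of 3 arrays; ages are equally spaced. The 97 mitochondrial ribosome and import genes (red) lie below 0 at P7 and P10 and above 0 from P15, with the top point at 0.55 on P15 replicate 2, and the 46 cytosolic ribosomal genes (blue) run the other way.

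Between P7 and P10 no gene of the 97 was called (limma, against 3.6% of all genes, 2.37% higher and 1.23% lower), with 11 at an unadjusted p under 0.05, 5 higher and 6 lower at P10, and a median of 0.04. Between P10 and P15 the difference was widest. At P15, 16 of the 97 genes rose relative to P10 and 1 fell (16.5 and 1.03%), against 8.57% and 2.79% of all genes, 11.4% in either direction, and the medians were 0.58 and 0.20. The genes that rose were 7 of the large subunit (Mrpl2, Mrpl17, Mrpl24, Mrpl27, Mrpl43, Mrpl46, Mrpl51), 7 of the small subunit (Mrps9, Mrps11, Mrps12, Mrps14, Mrps25, Mrps27, Mrps33) and the chaperones Timm10 and Timm13. Mrpl27 averaged 11.72 ± 0.32 at P15 and 10.37 ± 0.32 at P10 (SD, n = 3 arrays each, 2.54-fold, adjusted p = 0.0049). Mrpl17 read 9.71, 10.34 and 9.93 at P15 and 8.70, 8.44 and 8.54 at P10 (2.69-fold, adjusted p = 0.0068), but differed by 0.35 (adjusted p = 0.12) with its probe sets averaged, and Mrps12 rose 2.43-fold (adjusted p = 0.012). Mrpl52 alone fell, to 11.77, 11.63 and 11.58 at P15, against 12.65, 12.51 and 12.02 at P10 (1.66-fold, adjusted p = 0.039). Apart from Mrps33, which differed by -0.01 between P40 and P7, each gene named in this step was also called between P40 and P7.

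The calls of this step did not hold without P15 replicates 2 and 3. With these 2 arrays left out, no gene of the 97 was called (0.166% of all genes were called higher and 0.166% lower), 12 had an unadjusted p under 0.05, all 12 higher, and the median was 0.42 over the 97 genes, against 0.09 over all genes. P15 then has 1 array, assumed to vary like the other ages. Mrpl27 still differed by 0.99 (adjusted p = 0.3), Mrpl17 by 1.14 (adjusted p = 0.29), Mrps12 by 0.80 (adjusted p = 0.47), Mrps14 by 0.80 (adjusted p = 0.33) and Mrpl52 by -0.63 (adjusted p = 0.53). Without P15 replicate 2 alone 2 genes were called higher, without replicate 3 alone 5, and without P10 replicate 1 or 2 alone 6 and 5, but 26 or 27 without P7 replicate 1, P10 replicate 3 or P15 replicate 1. Of all genes, 1, 2.11, 2.75, 2.65, 12, 15.1 and 12.4% were called higher with these arrays left out, in the same order. Tested on the arrays of P15 and P10 alone, none was called (limma, 45 higher at an unadjusted p under 0.05). Of all genes, 0.321% were then called higher and 0.228% lower. Counts at an unadjusted p have no share of all genes beside them here, so they do not set these genes apart.

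From P15 to P25 the only gene called was Tomm34, which was higher at P25 (9.53, 9.90 and 9.46) than at P15 (8.90, 8.57 and 8.69), 1.88-fold (log2 0.91, SE 0.24, adjusted p = 0.04), against 4.86% of all genes called, 2.37% higher. The groups did not overlap, but the call was lost without either of P15 replicates 2 and 3, when any 1 of the P25 arrays was left out and in other settings. The median over the 97 genes was -0.24, and -0.04 without P15 replicates 2 and 3, and 73 of 97 means were lower at P25 than at P15 (75.3%, against 48.7% of all genes), or 55 (56.7%, against 38.6%) with P15 taken from replicate 1 alone. From P25 to P40 the only gene called was Tomm40, with 9.42, 9.98 and 9.44 at P40, against 8.55, 7.79 and 8.53 at P25 (2.5-fold, log2 1.32, SE 0.28), at an adjusted p of 0.05 that lay just under the threshold and rose above it in most other settings. Of all genes, 0.673% were called in that step, 0.404% higher. Tomm40 thus had means of 7.95, 8.22, 9.09, 8.29 and 9.61 from P7 to P40, and Tomm34 9.06, 8.40, 8.72, 9.63 and 9.61.

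**Figure D5:**
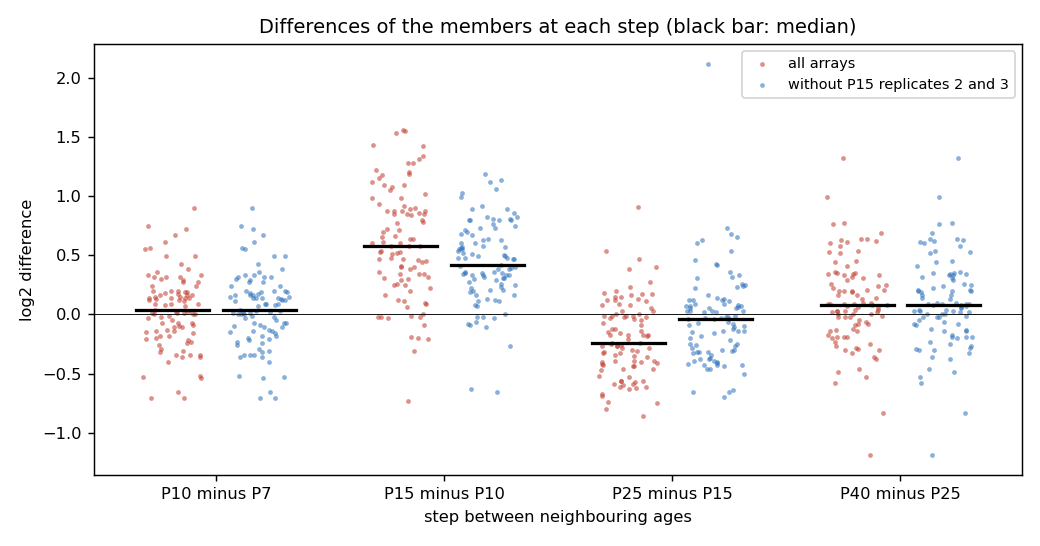
Log2 difference of each of the 97 tested genes (points) at each of the 4 steps between neighbouring ages, with all arrays (red) and without P15 replicates 2 and 3 (blue); black bars mark the medians. The medians for P15 minus P10 are 0.58 with all arrays and 0.42 without the 2 arrays, and those for P25 minus P15 are -0.24 and -0.04.

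Other nuclear genes of mitochondrial gene expression and import were read from lists of known members, and their counts between P40 and P7 are to be set against 27.5% of all genes higher and 17.6% lower. With the beta-actin covariate, the counts below became 0 and 0 for the translation factors, 1 and 0 for the synthetases, 3 and 0 for further ribosomal and assembly genes, 4 and 2 for import and processing, and 2 and 1 for mitochondrial DNA expression, higher and lower in that order. Under that covariate 14.2% of all genes were higher and 13.3% lower. Among 13 translation factors, 4 rose and none fell at P40 relative to P7 by the limma test (30.8%, median 0.54, no fall at an unadjusted p under 0.05). Qrsl1, a subunit of the amidotransferase that completes glutaminyl-tRNA, rose 2.73-fold, to 12.89 ± 0.05 at P40, against 11.44 ± 0.62 at P7 (SD, n = 3, adjusted p = 0.0037). Gfm2, a factor of ribosome recycling, had 7.81, 6.04 and 7.30 at P40, against 5.03, 4.93 and 4.70 at P7 (4.48-fold, adjusted p = 0.0039), but 1.23 in place of 2.16 on the log2 scale when its probe sets were averaged. Neither was called with the beta-actin covariate (log2 1.04, adjusted p = 0.096 for Qrsl1 and log2 1.77, adjusted p = 0.071 for Gfm2). Of 14 aminoacyl-tRNA synthetases of mitochondria, 4 rose and 1 fell (28.6 and 7.14%), and their median of 0.08 turned to -0.08 after quantile normalization and -0.13 with equal medians. Gars, the glycine enzyme shared with the cytosol, rose 1.92-fold (13.21, 12.66 and 13.12 at P40, against 12.22, 12.08 and 11.88 at P7, adjusted p = 5.9e-04). Iars2, for isoleucine, rose 3.33-fold (adjusted p = 0.0024), at 0.85 in place of 1.73 on the log2 scale when its probe sets were averaged and at 1.42, not called (adjusted p = 0.052), with the beta-actin covariate. Yars2, for tyrosine, fell 1.88-fold (adjusted p = 0.0031), but its averaged probe sets differed by 0.22, and it was not called with that covariate.

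Among 24 further ribosomal proteins and assembly factors, 8 rose and 1 fell (33.3 and 4.17%, median 0.71). Fastkd2, an RNA-binding protein of large-subunit assembly, had 11.86, 11.58 and 11.62 at P40, against 9.31, 10.06 and 10.14 at P7, and rose 3.61-fold (adjusted p = 2.9e-04). Gadd45gip1, a large-subunit protein at the exit of the tunnel, read 9.85, 9.67 and 9.79 at P40 and 8.20, 8.39 and 7.97 at P7 (3-fold, adjusted p = 6.0e-04). Averaged over its probe sets the log2 difference was 0.72 in place of 1.59. Rbfa, a maturation factor of the small subunit, fell 1.58-fold (adjusted p = 0.034) and was not called with the beta-actin covariate, without P7 replicate 2 or without P40 replicate 1 or 3.

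Among 23 further import and processing genes, 8 rose and 2 fell (34.8 and 8.70%, median 0.41). Mtx3, a metaxin of the outer membrane sorting machinery, averaged 11.63 ± 0.32 at P40 and 9.86 ± 0.20 at P7 (SD, n = 3 arrays each), and rose 3.41-fold (adjusted p = 3.6e-05). Dnajc15, a J-protein of the TIM23 motor in human cells, read 10.96, 10.49 and 10.88 at P40 and 8.94, 9.55 and 9.02 at P7 (3.05-fold, adjusted p = 4.1e-05). Both had lower adjusted p-values than any Mrp, Timm or Tomm gene. Grpel2, a nucleotide exchange factor of the matrix Hsp70, fell 2.39-fold (7.98, 8.18 and 7.97 at P40, against 9.38, 9.54 and 8.97 at P7, adjusted p = 0.0028). Romo1, a small protein of the inner membrane, fell 1.39-fold (adjusted p = 0.0046).

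Of 16 genes of mitochondrial DNA maintenance and transcription, 3 rose and 2 fell (18.8 and 12.5%, median 0.65). Polg, the catalytic subunit of the DNA polymerase, had 9.02, 8.58 and 8.70 at P40, against a wide spread of 6.33, 8.09 and 4.12 at P7 (log2 2.58, SE 0.67, adjusted p = 0.006). Its log2 difference was 1.56 without P7 replicate 3, 3.54 without P7 replicate 2 and 1.20 averaged over its probe sets. Polg2, the accessory subunit, fell 2.67-fold (6.23, 6.63 and 5.51 at P40, against 7.34, 7.87 and 7.42 at P7, adjusted p = 0.031). This call did not hold without P7 replicate 2 or 3, nor without P40 replicate 1 or 3, nor with the beta-actin covariate. Mtpap, which adds poly(A) tails to mitochondrial transcripts, rose 1.65-fold (adjusted p = 0.044), a call lost in 14 of the 26 other settings, among them quantile normalization (0.50), equal medians (0.51), the beta-actin covariate (0.31) and leaving out P7 replicate 2 (0.62) or 3 (0.57) or P40 replicate 1 (0.59) or 2 (0.71), as log2 differences. Hsd17b10, a dehydrogenase that is also a subunit of mitochondrial RNase P, fell 4.44-fold, to 8.46 ± 0.15 at P40, against 10.61 ± 0.38 at P7 (SD, n = 3 arrays, adjusted p = 3.4e-04).

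Set beside the mitochondrial ribosome and import genes, the cytosolic ribosomal proteins fell. Of 46 tested, none rose and 32 fell (69.6%, against 17.6% of all genes), with a median of -0.66 between P40 and P7 (limma, none higher at an unadjusted p under 0.05). On the single arrays their centred median was -0.33, -0.14 and -0.26 at P40, against 0.54, 0.54 and 0.37 at P7. Among 75 tested subunits of oxidative phosphorylation, 35 rose and 2 fell (46.7% and 2.67%, against 27.5% and 17.6% of all genes), with a median of 0.37. At the step from P10 to P15, 16 of the 97 mitochondrial ribosome and import genes rose (16.5%) and 25 of these 75 (33.3%), against 8.57% of all genes, and none of either set was called without P15 replicates 2 and 3. With the beta-actin covariate, 20 of the 75 rose between P40 and P7 and 25 of the 46 cytosolic genes fell. Of the 97 genes, 14.4% then rose and 4.12% fell, against 14.2 and 13.3% of all genes. With equal array medians the medians between P40 and P7 were 0.33 for the 97 genes, -0.88 for the cytosolic ribosomal proteins and 0.15 for oxidative phosphorylation, and no direction turned. No test of the difference between these gene sets was made.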

How the data were processed

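RNA of hand-picked G42 neurons was measured on 15 arrays, 3 animals at each of 5 ages, read as in the sample labels. Values deposited by the authors are log2 levels, 1 per probe set and array, made with GCRMA (background correction, normalization and summary) per the submitters' processing notes, whose version is not given in the sources used here. They ran from 0.51 to 16.13 and were used as deposited. Depth has no counterpart on arrays, and 3 arrays an age limit the precision.

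Of 45101 probe sets, 34945 were annotated to 1 gene by the platform table, giving 18193 genes, of which 9663 were tested. Differences were fitted with limma 3.58.1 in R 4.3.3, as a means model over the 5 ages with empirical Bayes moderation and a trend in the prior variance (10 residual degrees of freedom, median prior 4.85). P-values are two-sided and Benjamini-Hochberg adjusted across these 9663 genes; a gene is called at an adjusted p under 0.05. The fit was tested on simulated data. ± is the SD over 3 arrays, SE the moderated standard error.

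The text names, by adjusted p and per direction, the top 8 called genes, the top 2 of every role and list and the top 3 of every step, beside 13 import genes whatever their values, 4 cell markers and genes whose probe sets disagree. Further genes were picked with their values in view. The genes, motifs and lists were chosen with earlier results of these data known. Alternatives were quantile normalization, equal array medians, no filter, a filter at 7, values under 5 set to 5, the mean of probe sets, the beta-actin covariate, a replicate block, array weights, only the ages compared, and leaving out arrays. The same settings for the further named genes and steps, and counts by age with P15 from replicate 1 alone, were added after seeing the data. Promoters are RefSeq's (GRCm38.p6). The labels give a single animal per array, and replicate numbers name different animals. Tables and plots used Python 3.11.15 with pandas 2.3.3 and matplotlib 3.10.9.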

Additional observations from a re-analysis of the deposited data

How the results depend on the processing

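Of the 43 genes higher at P40 than at P7, 28 kept the call with equal array medians, 32 after quantile normalization, 37 with the mean of probe sets, 38 with the replicate block and 14 with the beta-actin covariate. Called in all 26 other settings were 12 of those 43 (Mrpl2, Mrpl4, Mrpl17, Mrpl27, Mrpl44, Mrpl45, Mrpl46, Mrps9, Mrps12, Mrps14, Timm17a, Tomm40) and 3 of the 7 lower ones (Mrpl23, Mrpl33, Mrpl52). The cause of the changes below was not tested. Precision is limited by 3 arrays an age and, for dim genes such as Mrpl14, by signal near background.

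Counts of genes between P40 and P7 were 43 higher (28 with equal array medians, 14 with the actin covariate, 27 to 43 when 1 array was left out, lowest without P7 replicate 3) and 7 lower (3 with the mean of probe sets, 4 with the actin covariate, 5 to 7 leaving out 1 array). Left-out arrays that took the count of 43 to 30 or under were P7 replicate 3 (27), P40 replicate 2 (30) and P40 replicate 1 (30). These were 27.8, 30.9 and 30.9%, against 22.9, 22.9 and 22.4% of all genes. The F test gave 48 (30 with equal medians, 26 with the actin covariate, 36 to 49 leaving out 1 array). Of all genes it called 47.2%, 45% with equal medians and 34.2% with the actin covariate. For P15 minus P10, the 16 higher became 9 with equal medians, 11 after quantile normalization, 11 with no filter, 2 with the actin covariate, 54 with array weights, 12 with the replicate block, 0 on the 2 ages alone, 0 without P15 replicates 2 and 3, and 2 to 27 leaving out 1 array. The 1 lower became 0 with no filter, the mean of probe sets, the actin covariate, the replicate block, the 2 ages alone or without P15 replicates 2 and 3, and 0 to 1 leaving out 1 array. The 0 called for P10 minus P7 became 0 to 2, with 2 called without P7 replicate 1. For P25 minus P15 the 1 called became 2 with no filter, 9 with array weights, 0 with the actin covariate, the replicate block, the 2 ages alone or without P15 replicates 2 and 3, and 0 to 3 leaving out 1 array. For P40 minus P25 the 1 called became 4 with no filter, 8 with array weights, 0 under the other settings except the filter at 7, and 0 to 1 leaving out 1 array. In that step these were 4.04% with no filter and 8.25% with array weights, against 16.5 and 10.4% of all genes. For P25 minus P15 they were 2.02 and 9.28% in the same order, against 1.81 and 16.8% of all genes.

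Median log2 differences, in every setting in the same direction unless given, were 0.55 for P40 minus P7 (0.34 after quantile normalization, 0.33 with equal medians, 0.45 with the actin covariate, 0.51 to 0.61 leaving out 1 array), 0.58 for P15 minus P10 (0.38, 0.31 and 0.47 in the same order, 0.48 with the mean of probe sets, 0.42 without P15 replicates 2 and 3, 0.46 to 0.65 leaving out 1 array), -0.24 for P25 minus P15 (-0.13 with the actin covariate, -0.04 without P15 replicates 2 and 3, -0.30 to -0.11), 0.08 for P40 minus P25 (-0.02 with the actin covariate, 0.04 to 0.10) and 0.04 for P10 minus P7 (-0.03 with array weights, -0.01 to 0.12).

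Single genes that turned sign between P40 and P7 were Mrpl3 (0.36), Timm22 (-0.00), Tomm22 (0.10) and Yars2 (0.22) with the mean of probe sets, Timm23 (-0.01 after quantile normalization, -0.11 with equal medians), Timm44 (-0.14 and -0.16 in the same order, -0.45 without P7 replicate 1), Timm9 (-0.40 with the actin covariate) and Tomm70a (0.03 without P7 replicate 1, -0.28 without P40 replicate 1). Mrpl17 kept its call with the mean of probe sets at 0.38 in place of 1.41, where its other 2 probe sets lay under the limit.

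The replicate block gave 38 higher and 6 lower between P40 and P7 and 37 by the F test. Of all genes it gave 26% higher, 17% lower and 42.6% by the F test. Same-numbered arrays of different ages deviated together no more than others. Their correlations across genes were -0.4 to 0.27 over 30 pairs, with a median of -0.07. Over 60 pairs of unlike number they were -0.35 to 0.52, with a median of 0.02. These correlations showed no pairing of the samples by number. Whether some arrays shared a batch is not given in the labels and was not tested.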

Other observations

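Some mitochondrial ribosome and import genes were present only on probe sets annotated to a pair of genes and entered no comparison. The probe set shared by Gm8069 and Tomm5, a small subunit of the TOM complex, read 10.40, 10.30 and 10.37 at P40, against 9.99, 8.79 and 9.54 at P7, with 7.83, 9.74 and 10.15 at P10 and 10.55, 10.57 and 10.51 at P15. Tomm6, another small subunit, shared both its probe sets with Prickle4. They read 11.51 ± 0.10 and 13.40 ± 0.13 at P40, against 10.46 ± 0.54 and 13.16 ± 0.18 at P7 (SD, n = 3). The probe set of Mrpl53 and Ccdc142 averaged 10.15 ± 0.21 at P40 and 9.46 ± 0.55 at P7, all 3 P40 arrays above all 3 P7 arrays. One probe set of Mrpl30 and Gm6238 averaged 11.55 ± 0.12 at P40 and 11.46 ± 0.54 at P7, and the other lay at background, at 2.86 and 3.00. A probe set of Mrps34 and Nme3, beside the one of Mrps34 alone, had 9.12, 9.53 and 9.19 at P40, against 8.51, 5.80 and 5.43 at P7. These values have no test, and the signal of either gene of a pair cannot be told apart.

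Of the 97 tested genes, 38 had more than 1 probe set over the limit, and in 19 of them the probe sets differed in sign between P40 and P7. Called genes among these 19 were Mrpl3, Mrpl38, Timm17b, Tomm20 and Tomm22. Mrpl38 (named after its values were seen) rose by 1.16 on the probe set used and differed by -0.38 on the other. Probe sets whose probes can match other transcripts were used for Tomm22 and Timm17b, which fell, and for Mrpl44, which rose. They were also used for Mrpl11, Mrpl15, Mrpl28, Mrpl48, Mrps23, Timm10b and Tomm7, which were not called. Other probe sets of Mrpl44 over the limit differed by 0.80 and 2.98.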
